A study of Homo sapiens with 15 samples.

Results

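The inflammatory chemokine and cytokine genes CXCL1, CXCL2, CXCL3, CXCL8, CCL2, CCL5, IL6, IL11, LIF and CSF2 were examined for 2 histone marks in the breast cancer cell line MDA-MB-231 and sub-populations of it. A gene's H3K4me3 peaks were those within 2 kb of any annotated start of its transcripts, and its H3K27ac peaks were those within 100 kb whose nearest protein-coding start was that of the gene. By this rule the 10 genes held 9 of 22572 H3K4me3 peaks and 29 of 62195 H3K27ac peaks. H3K4me3 peaks were found at 8 of the genes, with 2 peaks at IL11 and 1 at each of the others. H3K27ac peaks were also found at 8 genes, with 7 at CXCL8, 6 at LIF, 5 at IL6, 3 each at CXCL1, CXCL3 and CSF2, and 1 each at CXCL2 and IL11. CCL5 had neither kind of peak, LIF had no H3K4me3 peak within the distance, and CCL2 had no H3K27ac peak. Peaks were called on merged reads, so a gene without a peak has no count and its level was not measured.

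The parental line (Par), which is triple-negative, was compared with 2 sub-populations selected for their metastatic site, LM2 for the lung and BrM2 for the brain. The cells were human and were grown for 3 days with 10% serum before fixation in 1% formaldehyde. The labels named no introduced allele or treatment, and whether a line carried an introduced construct cannot be told from them. Each sub-population was represented by 1 line, so the line and its metastatic site cannot be told apart. Each line had 2 biological replicates per mark, which gave 12 libraries with counts. In bulk ChIP-seq, a lower count from fewer cells with the mark and one from less mark per cell cannot be told apart.

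The genes encode secreted proteins that recruit and activate leukocytes or act on the tumour cells themselves. CXCL1, CXCL2, CXCL3 and CXCL8 are chemokines that attract neutrophils through CXCR2, and CXCL8 also binds CXCR1. CCL2 attracts monocytes through CCR2, and CCL5 attracts T cells and monocytes. IL6, IL11 and LIF belong to the cytokine family that signals through the shared receptor subunit gp130 (encoded by IL6ST) to STAT3, and CSF2 encodes the growth factor GM-CSF. Many of these genes are induced by NF-kappaB, AP-1 and C/EBP factors, and IL11 and CXCL1 are known from gene signatures of bone and lung metastasis in this cell line. H3K4me3 marks active promoters, whereas H3K27ac marks active promoters and enhancers.

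The 250 bases before the annotated MANE Select start are shown for CXCL1, CXCL2 and CXCL3, the paralogs with the set's highest H3K4me3 in Par. They are also shown for IL11, the gene with a called H3K4me3 change when cell line alone was fitted. They were read from GRCh37, the build of the peak coordinates, and are printed 5′ to 3′ on the strand of the gene. None of these windows overlapped an annotated untranslated region, and each lay inside the H3K4me3 peak of its gene. Positions were chr4:74734860-74735109 on the forward strand for CXCL1, and chr4:74964913-74965162, chr4:74904407-74904656 and chr19:55881832-55882081 on the reverse strand for CXCL2, CXCL3 and IL11. Capitals mark a kappaB form (GGG, any 2 bases, then TTTCC) or an AP-1 form (TGANTCA), each searched on both strands.
CXCL1: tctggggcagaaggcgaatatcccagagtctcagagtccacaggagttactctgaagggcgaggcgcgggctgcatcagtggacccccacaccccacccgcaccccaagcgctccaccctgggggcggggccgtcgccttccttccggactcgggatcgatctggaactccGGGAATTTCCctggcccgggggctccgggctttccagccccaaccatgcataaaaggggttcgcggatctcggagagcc
CXCL2: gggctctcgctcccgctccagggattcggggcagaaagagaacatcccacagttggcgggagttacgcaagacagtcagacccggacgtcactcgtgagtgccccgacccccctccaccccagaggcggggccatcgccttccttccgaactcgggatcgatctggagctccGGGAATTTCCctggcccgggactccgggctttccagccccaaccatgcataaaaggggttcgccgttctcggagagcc
CXCL3: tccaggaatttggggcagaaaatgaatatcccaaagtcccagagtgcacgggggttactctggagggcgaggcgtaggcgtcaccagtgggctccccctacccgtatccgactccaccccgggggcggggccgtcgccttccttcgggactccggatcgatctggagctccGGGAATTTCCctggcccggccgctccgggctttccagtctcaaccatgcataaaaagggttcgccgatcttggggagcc
IL11: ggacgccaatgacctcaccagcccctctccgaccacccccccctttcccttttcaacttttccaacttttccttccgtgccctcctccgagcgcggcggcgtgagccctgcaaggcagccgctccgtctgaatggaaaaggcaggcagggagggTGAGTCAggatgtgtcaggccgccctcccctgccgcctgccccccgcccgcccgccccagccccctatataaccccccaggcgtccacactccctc

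The kappaB letters lay 79 to 70 bases before the start in CXCL1 and CXCL3 and 78 to 69 bases before it in CXCL2, with the same 10 bases in all of them. In IL11 the AP-1 letters lay 96 to 90 bases before the start. Over the whole window CXCL1 and CXCL3 had 81.4% identical aligned positions, CXCL2 and CXCL3 73.4%, and CXCL1 and CXCL2 70.1%, against 43.9% for CXCL1 and CXCL8. Whether reads were shared among these paralogs was not tested, and their counts are given with that uncertainty. In 3 further genes a motif was found, and these are shown with 10 flanking bases on each side. The windows were chr4:74606139-74606165 and chr7:22766736-22766765 on the forward strand and chr17:34207412-34207441 on the reverse strand.
CXCL8: ggaagtgtgaTGACTCAggtttgccct
IL6: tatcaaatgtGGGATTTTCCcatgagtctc
CCL5: ttgctattttGGAAACTCCCcttaggggat

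In all, 5 of the 10 windows held the kappaB form, which was present in 1.84% of 18922 protein-coding promoter windows of the same length. The AP-1 form was in 2 of the 10 windows and in 4.71% of all windows. No letters of either form were in the windows of CCL2, LIF and CSF2. A match describes the letters of the window only, and binding was not measured.

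Total counts in peaks ranged from 3489607 to 9839629 for H3K4me3 and from 1994996 to 6450028 for H3K27ac. All 5 genes listed for the MDA-MB-231 type (VIM, CD44, KRT8, KRT18 and ITGB1) had an H3K4me3 promoter peak. The strongest peak of KRT8 was also that of KRT18. There was none at PTPRC, CD3E, SPI1 and ITGAM (leukocytes), PECAM1 and CDH5 (endothelium) or DCN (fibroblasts), whereas CD14, KDR, COL1A1 and PDGFRB had one. All 7 epithelial and hormone receptor genes, ESR1 and PGR among them, had one as well.

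The level of H3K4me3 at the promoters differed widely between the genes. In CPM per kb (counts scaled to 1000000 counts in all peaks of the library, per kilobase of peak, mean of 2 libraries), Par levels were 27.9 at CXCL3, 27.1 at CXCL2, 14.0 at CXCL1, 10.9 at the IL11 start, 8.09 at IL6 and 3.09 at CSF2. The upstream IL11 peak (0.930), CCL2 (0.737) and CXCL8 (0.553) were lowest. Neighbours in this order that overlapped between libraries were CXCL3 and CXCL2, CXCL1 and IL11, IL11 and IL6, and the lowest 3 peaks. Among 13982 promoter peaks, CXCL3 stood at percentile 61.0 of this level in Par and CXCL8 at percentile 0.944. In no line did a promoter of the set stand above percentile 63.1. The IL11 peak stood at percentile 23.2 in Par, 63.1 in LM2 and 61.4 in BrM2, which made it the highest of the set in both sub-populations.

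**Figure D1:**
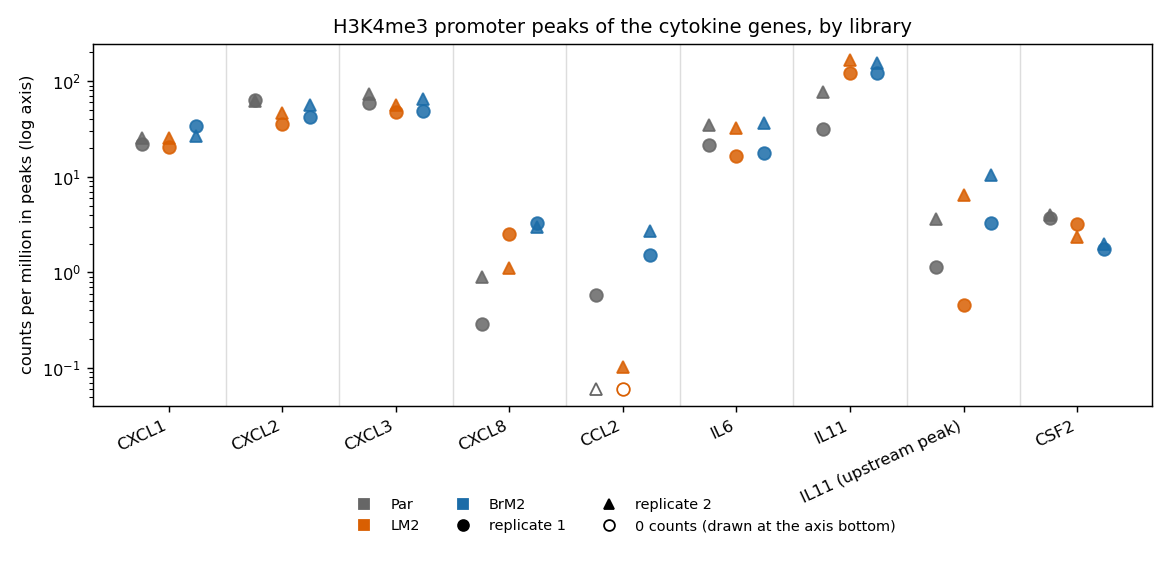
H3K4me3 in CPM (log axis) of the 9 promoter peaks in each library, with lines by colour and replicates by shape. Par lies below LM2 and BrM2 at the IL11 start, and CCL2 has 0 counts in 1 Par and 1 LM2 library.

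IL11 was the only one of the genes with a called change in H3K4me3 when cell line alone was fitted, without replicate number as a block. Its peak (chr19:55877778-55882719, hg19) covered the start of this reverse-strand gene and reached from position -888 to 4053 relative to it in bp. It had 31.5 and 76.4 CPM in the Par replicates, beside 121 and 165 in LM2 and 121 and 157 in BrM2. Both sub-populations lay above both Par libraries, and replicate 2 was higher than replicate 1 in each line. The peak rose 2.76-fold in LM2 (log2 fold change 1.47 ± 0.36, n = 2 per line, adjusted p = 0.00441, DESeq2 across all peaks). In BrM2 it rose 2.52-fold (1.33 ± 0.36, adjusted p = 0.0107). The contrasts share the Par libraries and are therefore given side by side only. BrM2 and LM2 differed by -0.13 ± 0.36 (adjusted p = 0.988).

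Thus 1 of 9 peaks was called higher in LM2, where 1.97% of 20821 tested peaks were, and none lower, where 0.538% were. In BrM2 the same peak was called, with 2.82% of 22134 tested peaks higher and 0.791% lower. With the replicate number as a block, the IL11 values were 1.52 ± 0.34 for LM2 (adjusted p = 0.00023) and 1.38 ± 0.34 for BrM2 (adjusted p = 0.000778), while 8.9% and 8.55% of all peaks were called higher. The edgeR quasi-likelihood test without the block put both outside the threshold (adjusted p = 0.0776 and 0.0842) and called 1.61% and 3.07% of all peaks. With the block, edgeR called 3 of the 9 peaks in LM2, 7 in BrM2 and 2 in BrM2 against LM2, among 26.2%, 33.3% and 38.6% of all peaks. Leaving out Par replicate 1 lowered the differences to 1.07 and 0.92 and ended both calls. Each call also ended without either library of its own sub-population.

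The second IL11 peak (chr19:55883684-55886222) lay 1853 bp upstream of the start, just inside the distance used. It had 1.15 and 3.57 CPM in Par, against 0.459 and 6.40 in LM2 and 3.27 and 10.4 in BrM2. The lines overlapped in LM2, and the BrM2 difference of 1.44 ± 0.88 did not pass the test (adjusted p = 0.663). Just outside the distance was an H3K4me3 peak 4264 bp upstream of LIF, which had 48.7 and 68.1 CPM in Par, against 56.0 and 85.5 in LM2 and 84.7 and 125 in BrM2. Its differences from Par were 0.30 ± 0.32 in LM2 (adjusted p = 1) and 0.77 ± 0.32 in BrM2 (adjusted p = 0.239). With the replicate block the BrM2 difference passed the test (0.78 ± 0.15, adjusted p = 3.22e-06), as did 8.55% of tested peaks in this direction. The difference of BrM2 from LM2 passed as well (0.48 ± 0.14, adjusted p = 0.00576), beside 8.99% of tested peaks. A distance of 5 kb, which takes in this peak, was added after the data were seen.

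Without the replicate block, the neutrophil chemokine genes showed no called change in H3K4me3. CXCL1 (chr4:74734515-74736208) had 22.1 and 25.5 CPM in Par, beside 20.4 and 25.5 in LM2 and 33.8 and 26.4 in BrM2. At CXCL2 (chr4:74963456-74965758) the values were 63.0 and 61.7 in Par, against 35.6 and 46.5 in LM2 and 41.9 and 56.0 in BrM2. CXCL3 (chr4:74903035-74905425) had 59.6 and 73.6 in Par, against 47.0 and 56.5 in LM2 and 48.9 and 65.2 in BrM2. In normalized counts CXCL2 and CXCL3 lay below Par in both sub-populations without overlap, whereas CXCL1 overlapped. The CXCL2 difference from Par was -0.59 ± 0.33 for LM2 (adjusted p = 0.704) and -0.43 ± 0.33 for BrM2 (adjusted p = 0.833). With the replicate block CXCL2 was called lower in LM2 (-0.57 ± 0.18, adjusted p = 0.0176), as were 5.49% of tested peaks.

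Other H3K4me3 peaks of the region also lay below Par. Over the H3K4me3 peaks in the 5 Mb around CXCL2 the median difference was -0.35 for LM2 and -0.42 for BrM2. With local medians removed, the CXCL2 differences were -0.24 and -0.01. The CXCL3 difference in LM2, -0.33 ± 0.32, turned to 0.01. Groups that do not overlap were common: of the peaks averaging 10 or more normalized counts, 17.3% were higher and 17.1% lower in LM2 without overlap, and 20% and 18.1% in BrM2. Of the 9 peaks, counted without that limit, 2 were higher and 2 lower without overlap in LM2, and 4 and 3 in BrM2. The CCL2 peak, among those higher in BrM2, averaged under 10 normalized counts.

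CXCL8 and CCL2 had few H3K4me3 counts and, without the replicate block, no called change. The CXCL8 peak (chr4:74606360-74607427) began 74 bp after the start and had 1 and 6 raw counts in Par, beside 11 and 11 in LM2 and 15 and 24 in BrM2. All libraries of the sub-populations lay above Par. The fitted log2 difference was 1.6 ± 1.06 for LM2 (adjusted p = 0.883) and 2.29 ± 1.04 for BrM2 (adjusted p = 0.336). Pooled over replicates, the BrM2 to Par ratio was 4.34 (exact 95% interval 1.92 to 11.5, counting error only). The LM2 to Par ratio was 2.27 (0.939 to 6.30).

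The CCL2 peak (chr17:32582321-32582709) began 17 bp after the start and had 2 and 0 counts in Par, against 0 and 1 in LM2 and 7 and 22 in BrM2. BrM2 lay above the other lines. The difference between BrM2 and Par was 3.01 ± 1.61 (adjusted p = 0.524), and that between BrM2 and LM2 4.81 ± 1.84 (adjusted p = 0.168). With the replicate block the latter was called (4.84 ± 1.85, adjusted p = 0.0430), as were 8.99% of tested peaks in this direction. The pooled BrM2 ratios were 11.3 (95% interval 2.86 to 97.7) over Par and 31.2 (5.17 to 1274) over LM2, again with counting error only. The pooled LM2 to Par ratio was 0.362 (0.00613 to 6.95). Neither the CCL2 nor the CXCL8 peak overlapped an H3K27ac peak, unlike the 7 other H3K4me3 peaks.

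Of the remaining promoters, IL6 (chr7:22765913-22769404), whose peak also covers a start of STEAP1B, varied more between replicates than between lines. It had 21.5 and 35.0 CPM in Par, against 16.5 and 32.5 in LM2 and 17.9 and 36.4 in BrM2. CSF2 (chr5:131409544-131410795) had 3.73 and 4.02 CPM in Par, beside 3.21 and 2.34 in LM2 and 1.75 and 1.98 in BrM2. BrM2 lay below Par, but the difference of -1.12 ± 0.76 did not pass the test (adjusted p = 0.746). It rested on 13 and 27 raw counts in Par and 8 and 16 in BrM2. In BrM2 against LM2, 0 of 9 peaks were called by DESeq2 and 0 by edgeR without the block, with 1 at an unadjusted p under 0.05 in each, while DESeq2 called 3.18% and edgeR 2.81% of 22572 peaks in either direction.

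**Figure D2:**
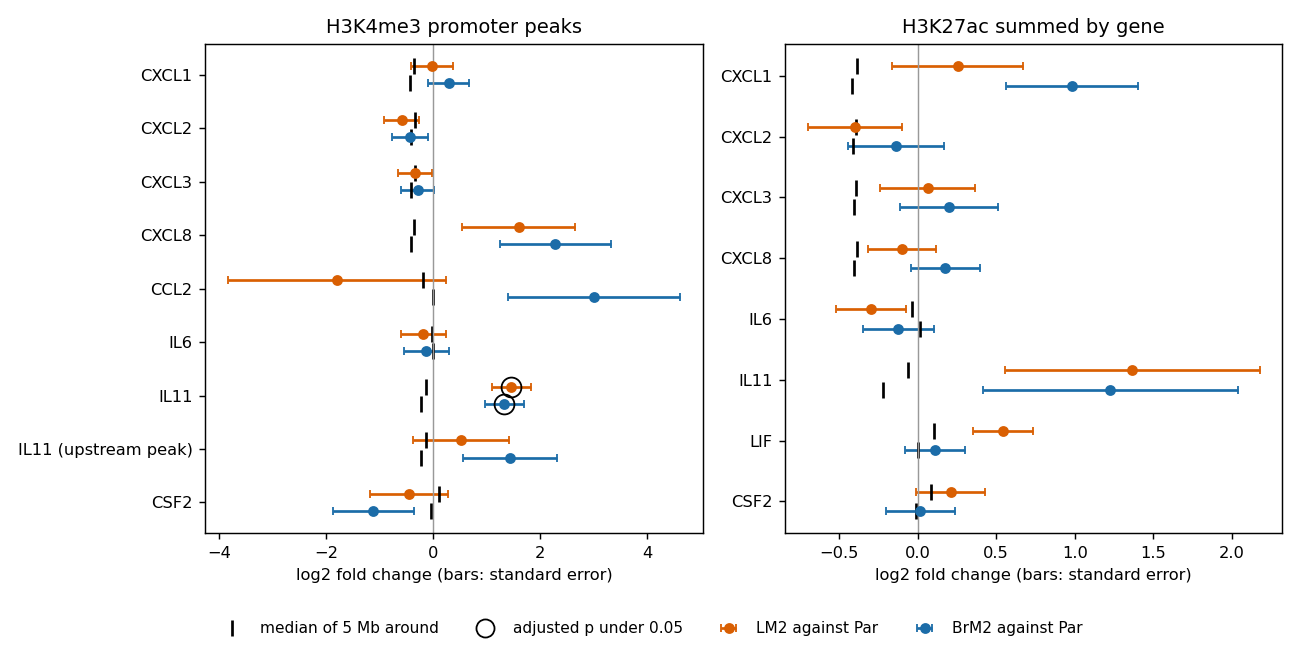
Log2 fold changes of LM2 and BrM2 against Par with standard errors, for the H3K4me3 promoter peaks (left) and H3K27ac summed by gene (right). Ticks give the median of the 5 Mb around and open circles adjusted p under 0.05, which mark only IL11 H3K4me3, at 1.47 and 1.33.

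H3K27ac was examined next, first summed over all peaks assigned to a gene. Per kilobase of peak, Par levels were 12.1 CPM at CXCL2, 7.71 at LIF, 6.44 at CXCL3, 6.03 at CXCL8, 5.60 at IL6, 4.60 at IL11, 4.43 at CSF2 and 3.20 at CXCL1. CXCL3 and CXCL8 overlapped between libraries, and the wide Par values of IL11 overlapped those of several other genes. Among 15912 genes with an assigned peak, CXCL2 stood at percentile 83.9 in Par and CXCL1 at percentile 7.50. IL11 was at percentile 20.3 in Par, 84.6 in LM2 and 77.7 in BrM2.

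**Figure D3:**
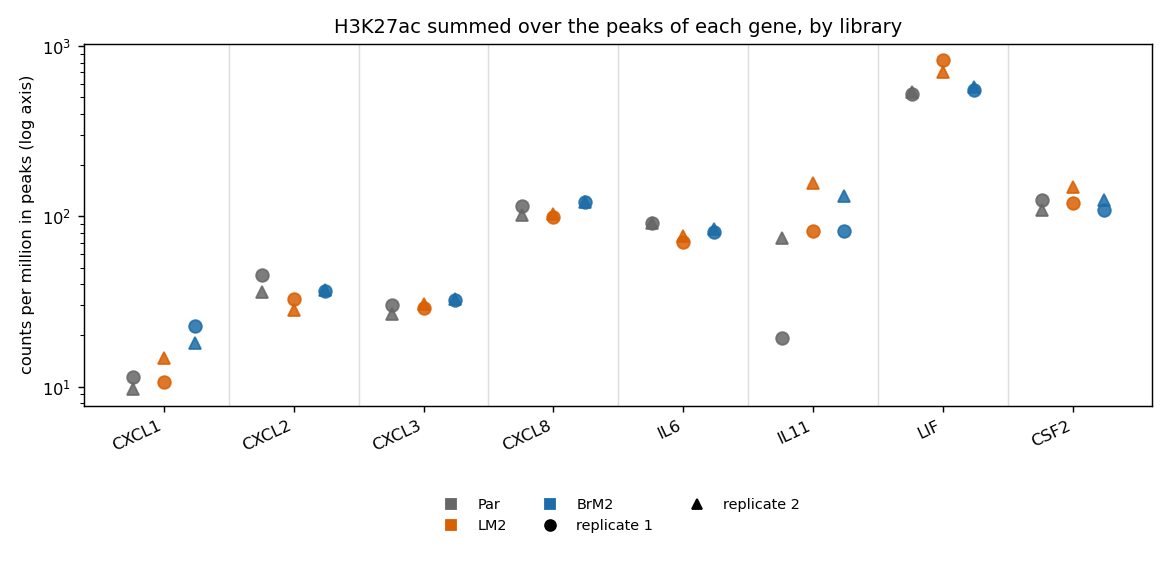
H3K27ac CPM summed over the peaks assigned to each of 8 genes (log axis), by library, with lines by colour and replicates by shape. Both LM2 libraries of LIF lie above the others, and the Par libraries of IL11 lie apart at 19.2 and 74.6.

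No gene of the set passed the test in summed H3K27ac without the block. DESeq2 called 0 of 8 genes in each of the 3 contrasts, edgeR without the block also called 0, and at an unadjusted p under 0.05 DESeq2 had 1 gene and edgeR 2 genes in each. Over all tested genes, DESeq2 called 3.43% in LM2, 6.29% in BrM2 and 3.86% in BrM2 against LM2, and edgeR 2.83%, 5.91% and 3.04%. With the replicate block 2 genes were called higher in LM2 (4.11% of all tested genes), 1 higher in BrM2 (6.52%) and 1 lower in BrM2 than in LM2 (4.76%). These were IL11, in both, and LIF, in LM2 and between the sub-populations. With the block edgeR called 2 of the 8 genes in each contrast, among 15%, 23% and 19.8% of all genes.

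LIF had the longest H3K27ac peaks of the set, 68672 bp in sum. Its summed values were 524 and 535 CPM in Par, against 824 and 704 in LM2 and 555 and 572 in BrM2. Both LM2 libraries lay above all others. LIF was 1.46-fold of Par in LM2 (0.54 ± 0.19, adjusted p = 0.0898) and 1.08-fold in BrM2 (0.11 ± 0.19, adjusted p = 0.872). With the block LIF was called higher in LM2 than in Par (0.54 ± 0.13, adjusted p = 0.00115) and lower in BrM2 than in LM2 (-0.43 ± 0.13, adjusted p = 0.0145). Loess offsets also gave a call in LM2 (adjusted p = 0.0388). Without LM2 replicate 1 the difference of LM2 from Par was 0.37, and that of BrM2 from LM2 -0.26.

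The signal lay mainly in 3 of the 6 LIF peaks. The widest (chr22:30588216-30628116) lay 14.6 kb downstream of the start and had 368 and 358 CPM in Par, against 601 and 453 in LM2 and 410 and 388 in BrM2. The peak over the start (chr22:30640413-30655975) had 99.0 and 118 CPM in Par, beside 142 and 170 in LM2 and 101 and 117 in BrM2. Differences between LM2 and Par were 0.47 ± 0.24 and 0.46 ± 0.26, and neither passed the test (adjusted p = 0.403 and 0.505). The third, between them (chr22:30629207-30639289), gave 0.50 ± 0.31 (adjusted p = 0.553). The remaining 3 LIF peaks had at most 29 raw counts in a library.

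IL11 had a single H3K27ac peak (chr19:55877783-55887989), which covered its start. It had 19.2 and 74.6 CPM in Par, against 82.5 and 157 in LM2 and 82.1 and 132 in BrM2. As for H3K4me3, LM2 and BrM2 lay above Par and replicate 2 above replicate 1. The differences from Par were 1.29 ± 0.86 in LM2 (adjusted p = 0.620) and 1.19 ± 0.86 in BrM2 (adjusted p = 0.577). With the block they were called at 1.47 ± 0.47 (adjusted p = 0.0359) and 1.43 ± 0.47 (adjusted p = 0.0346). In the sums by gene the blocked values were 1.52 ± 0.25 (adjusted p = 2.49e-07) and 1.41 ± 0.26 (adjusted p = 2.48e-06). Without Par replicate 2 the peak was called without the block, at 2.59 and 2.48, whereas without Par replicate 1 the differences were 0.62 and 0.52.

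The peaks around IL11 had medians near 0 in both marks. In the 150 kb to either side, 13 other H3K4me3 peaks (mean normalized count 10 or more) had a median difference of -0.04 for LM2 and 0.03 for BrM2, with 0 and 1 called. The 15 other H3K27ac peaks had medians of 0.08 and 0.04, also with 0 and 1 called. The called H3K4me3 peak (chr19:55794950-55796570) was higher in BrM2 than in Par by 2.48 ± 0.46 (adjusted p = 1.23e-05). An H3K27ac peak overlapping it (chr19:55794760-55796380) was the called one, higher in BrM2 by 1.56 ± 0.49 (adjusted p = 0.0312). Both BrM2 differences were larger than those of the IL11 peaks over the start.

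**Figure D4:**
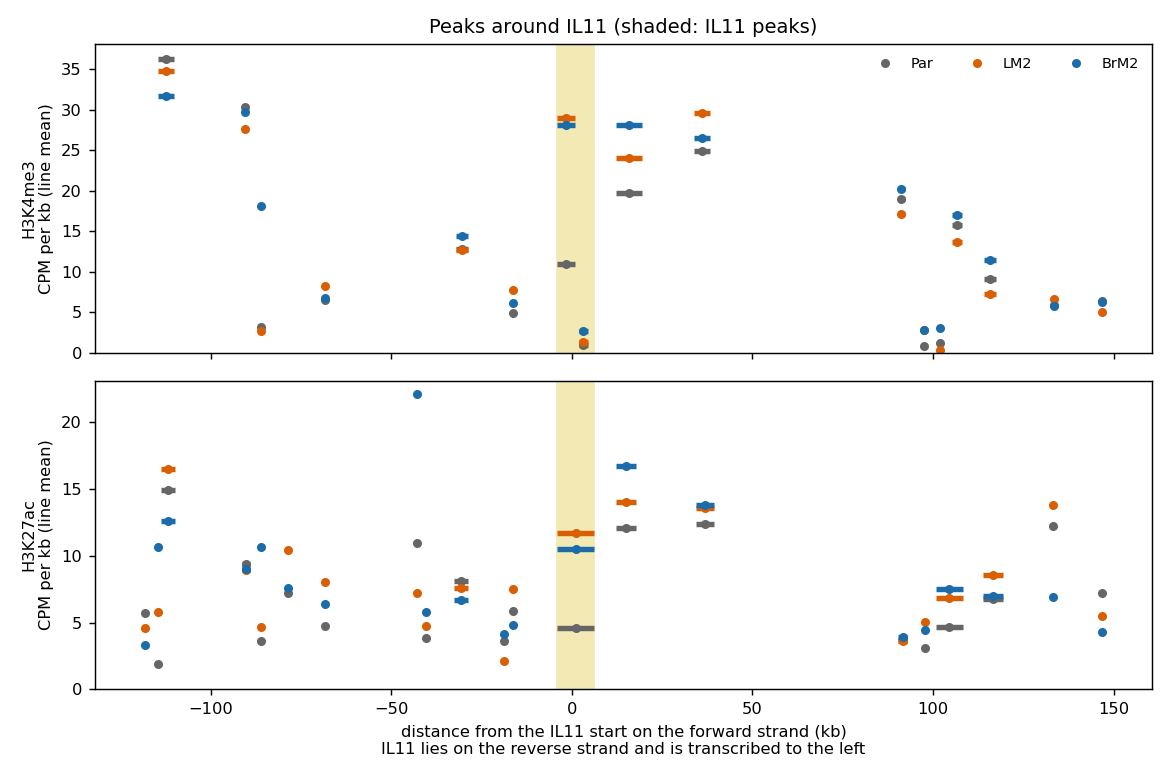
H3K4me3 (top) and H3K27ac (bottom) in mean CPM per kb of each peak, by line, against distance from the IL11 start in kb. In the shaded IL11 peaks Par lies below LM2 and BrM2, with H3K4me3 at 10.9 against 28.9 and 28.1.

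Single H3K27ac peaks of the genes gave 0 calls of 23 tested in LM2, 24 in BrM2 and 22 in BrM2 against LM2. At an unadjusted p under 0.05 DESeq2 gave 0, 1 and 0 peaks, and edgeR without the block called 0 in each contrast, with 3, 3 and 4 at an unadjusted p under 0.05. The shares over all tested peaks were 3.63%, 5.29% and 2.94% for DESeq2 and 5.14%, 6.88% and 3.89% for edgeR. With the block 1 peak, that of IL11, was called in LM2 (3.6% of peaks higher) and in BrM2 (5.14%), and 0 in BrM2 against LM2 (6.17% in either direction, 3 of the 29 at an unadjusted p under 0.05). With the block edgeR called 4, 3 and 3, among 13.2%, 15.9% and 12.5% of all peaks. DESeq2 gave the other peaks of the 29 no adjusted p, by its filter on low counts.

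CXCL1 H3K27ac was highest in BrM2. Its sum was 11.4 and 9.66 CPM in Par, against 10.7 and 14.6 in LM2 and 22.7 and 18.0 in BrM2. BrM2 lay above both other lines, at 1.97-fold of Par, without passing the test (0.98 ± 0.42, adjusted p = 0.171). The sum was called once 5 Mb medians were removed (1.40, adjusted p = 0.0286), and those local medians were -0.42 in BrM2 and -0.38 in LM2. It rested on 37 to 50 raw counts per library in Par and 36 to 89 in BrM2. The peak at the CXCL1 start (chr4:74734853-74736125) had 6.39 and 4.96 CPM in Par, beside 3.88 and 5.58 in LM2 and 12 and 6.02 in BrM2. A narrow peak 16.8 kb downstream (chr4:74751944-74752276) had the most CPM per kb of the gene, on 4 to 14 counts a library.

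The other chemokine genes of the cluster showed no called difference in H3K27ac. CXCL2 had 45.4 and 35.8 CPM in Par, against 32.7 and 28.2 in LM2 and 36.2 and 37.1 in BrM2, all in 1 peak over its start (chr4:74963738-74967092). Its difference in LM2 was -0.48 ± 0.31 for the peak (adjusted p = 0.603), and 0.03 with 5 Mb medians removed. The peak over the CXCL3 start (chr4:74903515-74905145) had 18.5 and 17.7 CPM in Par, against 15.8 and 21.8 in LM2 and 22.9 and 24.1 in BrM2, with a BrM2 difference of 0.38 ± 0.37 (adjusted p = 0.737).

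At CXCL8 all 7 H3K27ac peaks lay upstream of the gene. The peak with the most CPM per kb (chr4:74590502-74595411) was 10.8 kb from the nearest start and had 50.2 and 40.5 CPM in Par, beside 36.1 and 39.1 in LM2 and 54.8 and 46.6 in BrM2. Its LM2 difference was -0.34 ± 0.30 (adjusted p = 0.792), which turned to 0.17 with 5 Mb medians removed. The peak nearest to the start (chr4:74605129-74606082) ended 204 bp before it and had 8.44 and 5.48 CPM in Par, against 3.10 and 5.58 in LM2 and 5.10 and 4.01 in BrM2. H3K4me3 at CXCL8 was higher in the sub-populations and this H3K27ac peak lower, and neither passed the test (adjusted p = 0.727 in LM2 and 0.763 in BrM2 for H3K27ac). From 60 kb before to 520 kb after the CXCL8 start, 8 other H3K27ac peaks with at least 10 normalized counts on average had median differences of -0.59 for LM2 and -0.37 for BrM2.

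**Figure D5:**
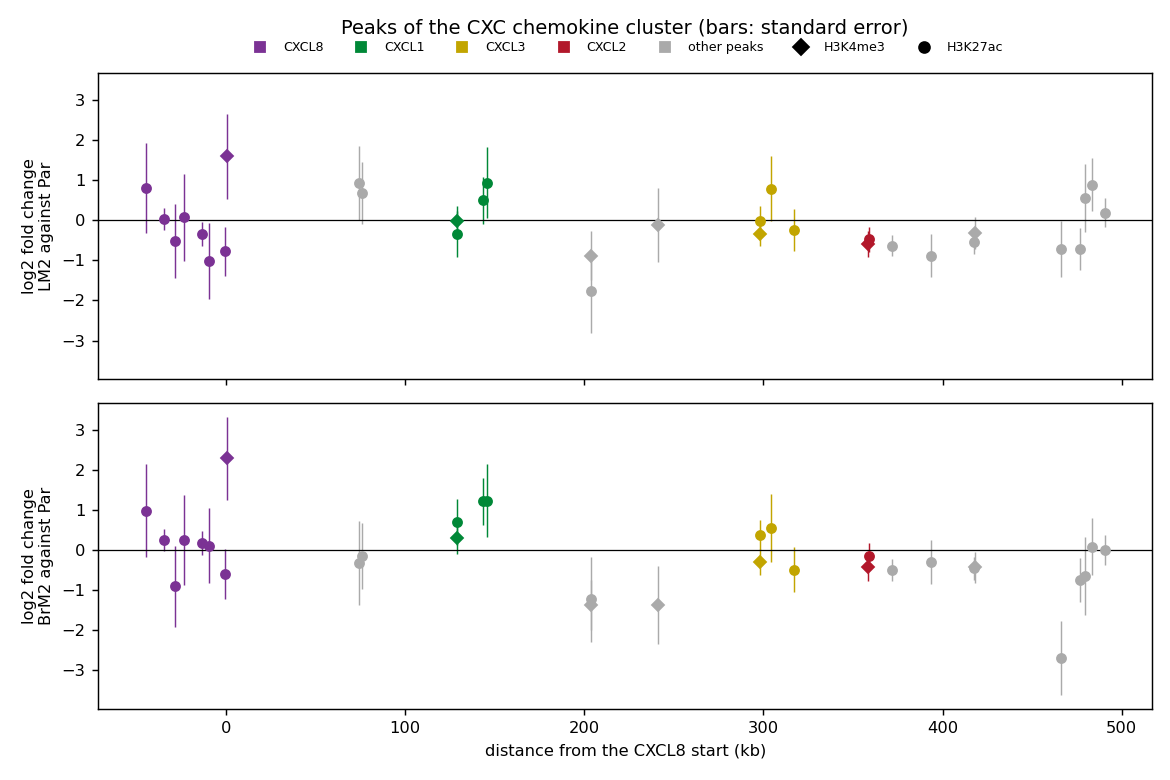
Log2 fold changes with standard errors of the H3K4me3 (diamonds) and H3K27ac (circles) peaks of the CXC chemokine cluster in LM2 (top) and BrM2 (bottom) against Par, by distance from the CXCL8 start in kb. In BrM2 the CXCL8 H3K4me3 peak is highest at 2.29, and H3K27ac peaks of CXCL1 reach 1.23. Both of these values rest on few counts and were not called. Of the other peaks (grey) the 8 H3K27ac peaks averaging 10 or more normalized counts have a median of -0.37 in BrM2.

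IL6 had 91.2 and 90.8 CPM of summed H3K27ac in Par, against 70.2 and 77.1 in LM2 and 80.5 and 84.7 in BrM2. Both sub-populations lay below Par, with differences of -0.30 ± 0.22 in LM2 (adjusted p = 0.742) and -0.12 ± 0.23 in BrM2 (adjusted p = 0.880). Removing chromosome medians turned the LM2 value to 0.03. The peak over the IL6 start (chr7:22761063-22771319) had 49.5 and 56.9 CPM in Par, beside 42.2 and 47.3 in LM2 and 42.6 and 46.1 in BrM2, and 5 of 5 IL6 peaks overlapped STEAP1B. The IL6 peak with the most CPM per kb (chr7:22756312-22759525) had 26.0 and 18.5 CPM in Par, against 17.2 and 18.3 in LM2 and 29.1 and 25.1 in BrM2.

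CSF2 had the smallest summed difference of the set in BrM2. Its sum was 124 and 108 CPM in Par, against 120 and 148 in LM2 and 109 and 124 in BrM2, with differences of 0.21 ± 0.22 and 0.02 ± 0.22 (adjusted p = 0.896 and 0.988). The peak over the start (chr5:131406648-131412043) had 13.7 and 20.6 CPM in Par, beside 18.0 and 24.2 in LM2 and 19.4 and 25.1 in BrM2. A wider peak 10.8 kb downstream (chr5:131420262-131434010) held 72.1 and 58.2 CPM in Par, against 65.4 and 82.2 in LM2 and 64.5 and 69.7 in BrM2.

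Across the 29 H3K27ac peaks, the median difference was -0.02 for LM2 and 0.14 for BrM2, beside -0.05 and -0.02 over 45448 peaks. For the 9 H3K4me3 peaks it was -0.19 and 0.30, beside 0.00 and -0.04 over 17558 peaks. The 8 summed genes had medians of 0.14 in both, beside -0.02 and -0.01 over 15352 genes. The wider medians cover features averaging 10 or more normalized counts, a limit that was not applied to the members.

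Across the 6 libraries, the genes whose summed H3K27ac was most like that of a member were looked for among the listed pathway genes on other chromosomes. By Pearson's r of log2(CPM + 1), the IL11 pattern was closest to that of CEBPB (r = 0.943), the transcription factor gene. LIF was closest to IL1B (r = 0.955) and CSF2 to CSF2RB (r = 0.894). CXCL1 and CXCL8 were closest to CXCR4 (r = 0.925 and 0.847), CXCL2 to CHUK (r = 0.929), CXCL3 to CCL20 (r = 0.959) and IL6 to NFKB2 (r = 0.798). Each is the highest of 54 to 62 values over libraries that share depth and replicate number, and is a description only.

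Some other ligands of the pathway passed the test. Of 36 other chemokine and cytokine genes, 16 had an H3K4me3 promoter peak (17 peaks) and 20 had assigned H3K27ac. In LM2, 2 peaks (1.97% of all peaks) and 2 summed genes (2.42% of all genes) were called higher and 0 lower, and they belonged to CSF3, which encodes the granulocyte growth factor G-CSF, and IL1B, an inducer of the genes above. In BrM2 against Par, DESeq2 and edgeR without the block called 0 for either mark. Over all features DESeq2 called 3.61% of peaks and 6.29% of genes in this contrast, and edgeR 3.07% and 5.91%. At an unadjusted p under 0.05 the list had 1 peak and 1 gene in DESeq2 and 2 and 2 in edgeR. The block raised the H3K4me3 calls of the 17 peaks to 4 higher and 1 lower in LM2, where it called 8.9% and 5.49% of all peaks, and to 2 lower in BrM2, where it called 9.11%. The CSF3 promoter had 2.29 and 5.81 CPM of H3K4me3 in Par, against 63.1 and 108 in LM2 and 1.09 and 2.97 in BrM2. LM2 stood apart, 4.38 ± 0.46 above Par (adjusted p = 3.03e-17).

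CSF3 H3K27ac was 78.2 and 133 CPM in Par, beside 293 and 305 in LM2 and 99.9 and 117 in BrM2, a difference of 1.52 ± 0.24 in LM2 (adjusted p = 1.31e-07). IL1B H3K27ac was 57.2 and 52.2 CPM in Par, against 128 and 113 in LM2 and 74.9 and 68.2 in BrM2. LM2 was higher than Par by 1.15 ± 0.24 (adjusted p = 0.0002), a call lost without LM2 replicate 1. Its H3K4me3 peak had at most 4.36 CPM, and the call (adjusted p = 0.0491) was lost in 11 of 15 alternatives.

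Of 16 receptor genes, 12 had an H3K4me3 promoter peak (13 peaks) and 14 had assigned H3K27ac. IL6R, the receptor of IL6, was the one called in LM2 without the block, in both marks. Over all features 1.97% of peaks and 2.42% of genes were called higher there. It had 13.5 and 17.1 CPM of H3K4me3 in Par, against 33.3 and 38.7 in LM2 and 26.8 and 23.4 in BrM2, a difference of 1.27 ± 0.38 in LM2 (adjusted p = 0.0360). H3K27ac at IL6R differed by 1.00 ± 0.30 (adjusted p = 0.0265), and both calls were lost in 7 of 15 alternatives, among them edgeR without the block and each library left out. With the block 2 further H3K4me3 peaks were called lower in LM2 (5.49% of all peaks), those of CSF2RA, a receptor subunit for GM-CSF (-1.50 ± 0.39, adjusted p = 0.00227), and TNFRSF1A, a receptor of TNF (-0.49 ± 0.13, adjusted p = 0.00377). In summed H3K27ac the block also called 1 receptor gene lower in LM2 (2.79% of all genes), again CSF2RA (-0.90 ± 0.27, adjusted p = 0.0166).

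In BrM2, CXCR4, the receptor of CXCL12, had the largest difference among the called pathway genes. Its promoter had 10.3 and 10.3 CPM of H3K4me3 in Par, beside 11 and 17.0 in LM2 and 61.1 and 52.8 in BrM2. The difference between BrM2 and Par was 2.42 ± 0.40 (adjusted p = 2.54e-07). Its H3K27ac was 1.82 and 2.09 CPM in Par, against 0.465 and 2.93 in LM2 and 28.8 and 19.5 in BrM2 (3.66 ± 0.64, adjusted p = 2.03e-06), a call lost without BrM2 replicate 1. In summed H3K27ac, 2 receptor genes were called higher and 2 lower in BrM2, beside 3.68% and 2.61% of all genes, and with the block 2 and 4, beside 6.52% and 5.68%. In H3K4me3 1 of the 13 peaks was called higher, beside 2.82% of all peaks, and with the block 2 were higher and 3 lower, beside 8.55% and 9.11%. LIFR, the receptor of LIF, fell by 0.71 ± 0.20 in summed H3K27ac (adjusted p = 0.0123). It went from 176 and 187 CPM in Par to 106 and 113 in BrM2, with 152 and 160 in LM2. CSF2RA had 69.8 and 81.2 CPM of summed H3K27ac in Par, against 49.6 and 30.3 in LM2 and 34.2 and 41.6 in BrM2. Both sub-populations were thus below Par without overlap. Its BrM2 difference passed the test (-0.98 ± 0.31, adjusted p = 0.0291), but became 0.17 with 5 Mb medians removed. The LIFR call was also lost with those medians removed, and both were lost without either Par or either BrM2 library.

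Of 21 signalling genes, all had H3K4me3 and H3K27ac, and 0 of 29 promoter peaks were called in any contrast by DESeq2 or edgeR without the block. Over all peaks DESeq2 called 2.51% in LM2, 3.61% in BrM2 and 3.18% in BrM2 against LM2, and edgeR 1.61%, 3.07% and 2.81%. Of the 29, DESeq2 had 0, 1 and 1 at an unadjusted p under 0.05. With the block DESeq2 called 1 of the 29 in LM2, 4 in BrM2 and 5 in BrM2 against LM2. It called 14.4%, 17.7% and 22% of all peaks in either direction. In summed H3K27ac 2 of the 21 genes were called lower in BrM2 than in Par, beside 2.61% of all genes. With the block 2 genes were called in LM2 and 4 in BrM2 in either direction, beside 6.91% and 12.2%. CEBPD, which encodes a C/EBP factor, had 95.8 and 113 CPM in Par, against 98.4 and 108 in LM2 and 57.1 and 60.2 in BrM2, a difference of -0.81 ± 0.23 from Par (adjusted p = 0.0115) that was lost without either Par or either BrM2 library. RELA, which encodes an NF-kappaB subunit, had 74.8 and 75.4 CPM in Par, beside 78.1 and 74.2 in LM2 and 42.6 and 46.6 in BrM2. It was lower in BrM2 than in LM2 by -0.77 ± 0.25 (adjusted p = 0.0491), a call lost in 9 of 15 alternatives.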

How the data were processed

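ChIP-seq libraries of H3K4me3 and H3K27ac from Par, LM2 and BrM2 cells were analysed, with 2 biological replicates per line and mark. The authors trimmed and aligned the reads to hg19 (Bowtie2 2.3.4.3), marked duplicates with Picard, merged the reads of a mark, called broad peaks on the merged reads (MACS2 2.1.2) and counted reads, extended by 150 bp, per peak with featureCounts 1.6.0. The deposited tables hold these raw counts per peak, without normalization. A region marked in 1 line only can be missed by peaks called on merged reads, and no region without a peak has a count. Input samples were not analysed here, and the deposited peak lists repeat the coordinates of the count tables.

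Starts were those of all protein-coding transcripts in GENCODE release 44 lifted to GRCh37. An H3K4me3 peak was assigned to a gene when it lay within 2 kb of a start. An H3K27ac peak was assigned to the gene with the nearest start when that start was within 100 kb, and these counts were also summed by gene. CPM are counts scaled to 1000000 counts in all peaks of the library. Differences were tested with the DESeq2 1.42.0 Wald test as in the study's methods, on all features of a table, with the 6 libraries of a mark in one fit (3 residual degrees of freedom), size factors by the median of ratios, log2 fold changes without shrinkage and adjustment after Benjamini and Hochberg. A feature was called when its adjusted p lay under 0.05. Values after ± are standard errors from that fit. The scripts were tested on simulated data.

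Replicate numbers in the sample titles are shared by the lines. Libraries with one number in different lines deviated together from their line's mean, with r between 0.788 and 0.843 for H3K4me3, between 0.407 and 0.607 for H3K27ac and between 0.414 and 0.655 for H3K27ac summed by gene, all over the limit of 0.1. A fit that adds replicate number as a block (2 residual degrees of freedom) is given beside a result where it changes the call. Alternatives were edgeR 4.0.16 with and without the block, other scalings, a count filter, removal of chromosome or 5 Mb medians, other distances and each library left out. The wider distance of 5 kb was added after the data were seen.

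The genes, the pathway and marker lists and the tests were chosen with earlier results of these data known. One receptor gene and one leukocyte marker of these lists are not reported here. Named features are every H3K4me3 peak of the genes, the H3K27ac peak nearest to each start, the one with the most CPM per kb, the H3K27ac sum of each gene, and, of other pathway genes, at most the 4 with the smallest adjusted p per contrast and table. Whether replicates came from separate thaws or cultures beyond the label of biological replicate is not given in the sources used here, so p-values measure the spread between these libraries.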

Additional observations from a re-analysis of the deposited data

Results flagged for a closer look

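CCL2 H3K4me3 differed between BrM2 and LM2 with the replicate block by a log2 fold change of 4.84 (adjusted p = 0.0430, DESeq2), with 7 and 22 counts in BrM2 and 0 and 1 in LM2. LIF H3K27ac summed by gene was lower in BrM2 than in LM2 with the replicate block, by -0.43 (adjusted p = 0.0145). Without the block neither difference passed the test.

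The sub-populations also differed at other genes of the pathway, by the test of BrM2 against LM2 without the block. CSF3 was lower in BrM2 by -5.41 in H3K4me3 (adjusted p = 5.5e-24) and by -1.46 in summed H3K27ac (adjusted p = 1.34e-06). CXCR4 was higher in BrM2 by 1.96 in H3K4me3 (adjusted p = 4.57e-05) and by 4.02 in summed H3K27ac (adjusted p = 3.58e-07). In summed H3K27ac, CEBPD differed by -0.81 (adjusted p = 0.0171) and RELA by -0.77 (adjusted p = 0.0491). The CEBPD call was lost in 5 of 15 alternatives, among them 5 Mb medians removed, and the RELA call in 9. Each CXCR4 call was lost in 1, without BrM2 replicate 1 for H3K4me3 and without LM2 replicate 1 for H3K27ac. The CSF3 calls were lost in 0. With 2 libraries per line and mark, no group was large enough for a check of single outlying libraries.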

How the results depend on the processing

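Of the 10 genes' H3K4me3 peaks, 1 was called in LM2 and 1 in BrM2, the IL11 peak in both. These counts were the same under other size factors, loess offsets, removal of chromosome or 5 Mb medians, the count filter, and other start and distance rules, 5 kb included. edgeR without the block gave 0 and 0, and an adjusted p under 0.01 gave 0 in BrM2. With the replicate block DESeq2 called 2 H3K4me3 peaks in LM2 and 1 in BrM2 against LM2, where the unblocked count was 0. With the replicate block in edgeR there were 3 in LM2, 7 in BrM2 and 2 in BrM2 against LM2, in a fit that called 26.2%, 33.3% and 38.6% of all peaks. Leaving out single libraries gave 0 to 1 in LM2 and in BrM2.

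For single H3K27ac peaks the count was 0 in each contrast. The block gave 1 in LM2 and 1 in BrM2, the block in edgeR 4, 3 and 3, and leaving out single libraries 0 to 1 against Par. For summed H3K27ac, also 0, the block gave 2 in LM2, 1 in BrM2 and 1 in BrM2 against LM2, and the block in edgeR 2 in each. Loess offsets gave 1 in LM2, removal of 5 Mb medians 1 in BrM2, and leaving out single libraries 0 to 1 against Par. The cause of these changes was not tested. Shares of all features called with the block are given above. Those with loess offsets, with 5 Mb medians removed or with a library left out are not given here. For either mark, the counts under those settings therefore have no general rate beside them. The block changed no other call of DESeq2 among the 10 genes.

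Fold changes were followed where a named feature of the gene set differed by more than its standard error, or where a named pathway gene was called. Smaller differences of the set were not followed, so their changes of sign were not counted. Of the 58 fold changes followed, 6 changed sign under an alternative. With 5 Mb medians removed, LM2 differences became 0.014 for CXCL3 H3K4me3, 0.031 for the CXCL2 and 0.17 for the CXCL8 H3K27ac peak, and the BrM2 difference of CSF2RA became 0.17. With chromosome medians removed, the LM2 difference became 0.028 for the IL6 H3K27ac peak over the start and 0.027 for the IL6 sum.

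Depth limits CXCL8 and CCL2 H3K4me3, where a library held at most 24 counts, and CSF2 H3K4me3, where it held at most 27. Depth also limits 5 to 7 of the 29 H3K27ac peaks, which had no adjusted p. With 2 libraries per line, a difference near 1 standard error could not be told from replicate spread.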
